A study of Mus musculus with 60 samples.

Results

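The heat shock response and the unfolded protein response were followed through 10 genes in 3 mouse tissues (liver, subcutaneous fat, visceral fat) under control chow or Western diet, with and without NaKtide. The genes are Hspa1a, Hspa1b, Dnajb1 and Hsph1 of the cytosol, Hspa5 of the endoplasmic reticulum (ER), and Ddit3, Atf3, Atf4, Trib3 and Chac1 of the stress-signalling branch. They were taken by symbol from a table of 54232 gene IDs, and all 10 were found and passed the filter on low counts in the model of each tissue and in that of all libraries. A second ID that also carries the symbol Ddit3 had 0 counts in all libraries and was not used.

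The study holds 60 RNA sequencing libraries, 5 in each of 12 groups of tissue, diet and NaKtide. Control mice ate a chow with 11% of fat, 62% of carbohydrate and 27% of protein for 12 weeks, and Western diet mice ate 42% of fat, 42.7% of carbohydrate and 15.2% of protein for the same time. NaKtide, a fragment of the sodium pump (Na,K-ATPase) that keeps the pump from signalling through the kinase Src, is made from a transgene that doxycycline switches on, and the NaKtide groups received the drug in their food at 300 mg/kg. Which promoter drives the transgene, whether mice without NaKtide carried it or ate doxycycline, and whether one mouse gave all 3 tissues are facts not given in the labels. The effects of the peptide and of the drug therefore cannot be told apart. The transgene has no row among the gene IDs, so the NaKtide labels could not be checked against it.

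Cells meet misfolded proteins with separate programmes for the cytosol and the ER. In the cytosol, heat shock factor 1 switches on chaperones of the HSP70, HSP40 and HSP110 families. In the ER, BiP (the product of Hspa5) releases the sensors IRE1, PERK and ATF6 when unfolded proteins build up. PERK and related kinases phosphorylate the initiation factor eIF2alpha, which lowers general translation but favours that of ATF4. ATF4 then drives CHOP (the product of Ddit3), ATF3, TRIB3 and CHAC1. Liver and fat both secrete large amounts of protein and handle lipid at the ER membrane, and both programmes have been studied in obesity.

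The libraries held 3.18 to 9.78 M counts (median 6.41 M). Markers of the labelled tissues were present. The 8 hepatocyte genes summed to between 31560 and 52060 CPM (counts scaled by library size within each tissue) in liver and to at most 1102 CPM in subcutaneous and 2323 CPM in visceral fat. The 7 adipocyte genes summed to at least 8351 CPM in subcutaneous fat, but to between 713 and 21900 CPM in visceral fat. In 6 visceral libraries (control replicates 3, 4 and 5, control with NaKtide replicate 1, Western with NaKtide replicates 2 and 5) 12 genes of the male reproductive tract and testis summed to over 1000 CPM, and to between 2889 and 25300 CPM. Western diet alone had no such library. The other 14 visceral libraries held 0.576 to 926 CPM of these genes. Below, libraries with tract transcripts are the 6 over 1000 CPM, and those without them hold less and not none. Skeletal muscle transcripts stood in subcutaneous fat (15 genes, up to 249900 CPM in control with NaKtide replicate 2) and in 2 control livers (356 CPM in replicate 2 and 780 CPM in replicate 4). Called changes of the 10 genes in visceral fat are given with and without the first set, and the liver diet changes of Atf3 and Ddit3 with and without those 2 livers. Every subcutaneous control library holds muscle transcripts, so a covariate was used there, and results between tissues were fitted with all libraries only.

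For the genes on which the results turn, stretches before the RefSeq start site are shown. Those of Hspa5, Atf3 and Chac1 hold matches to elements through which these programmes are known to act. Those of Hspa1a and Hspa1b hold no match to the elements searched and are shown for their likeness to each other. They are RefSeq sequences on GRCm38.p6, read 5′ to 3′ on the strand of the gene, in lower case. The Hspa5 and Atf3 stretches lie before the start that RefSeq uses but inside the GENCODE span given with each gene. Capitals mark the base that differs between Hspa1a and Hspa1b, or a matched motif in the other genes.

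Hspa1a: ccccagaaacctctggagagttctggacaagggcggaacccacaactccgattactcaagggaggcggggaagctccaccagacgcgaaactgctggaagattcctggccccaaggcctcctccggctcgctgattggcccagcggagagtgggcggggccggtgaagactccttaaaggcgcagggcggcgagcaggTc
Hspa1b: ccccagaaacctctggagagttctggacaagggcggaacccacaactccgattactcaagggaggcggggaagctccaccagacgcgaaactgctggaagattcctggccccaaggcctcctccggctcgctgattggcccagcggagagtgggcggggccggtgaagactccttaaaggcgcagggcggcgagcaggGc
Hspa5: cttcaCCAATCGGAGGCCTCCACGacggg
Atf3: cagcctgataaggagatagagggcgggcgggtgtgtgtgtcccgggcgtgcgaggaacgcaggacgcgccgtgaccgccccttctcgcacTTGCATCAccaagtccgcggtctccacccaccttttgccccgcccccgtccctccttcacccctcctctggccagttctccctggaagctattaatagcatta
Chac1: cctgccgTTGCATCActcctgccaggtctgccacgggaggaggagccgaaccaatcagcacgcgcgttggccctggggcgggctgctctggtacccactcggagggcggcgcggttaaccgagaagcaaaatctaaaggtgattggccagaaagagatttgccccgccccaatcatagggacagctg

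Hspa1a and Hspa1b are neighbours on chromosome 17, and the 200 bases shown for each (chr17:34972157-34972356 and chr17:34959239-34959438, minus strand) differ at 1 base, T199G counted from the first base printed. Their transcripts are also alike, since 58.8% of the 50-base windows of the Hspa1a transcript occur in Hspa1b and 62.3% of those of Hspa1b in Hspa1a. Reads of 50 bases can therefore be split between the pair, and the separate values of these genes are uncertain. The stretch of Hspa5 (chr2:34772020-34772048, plus strand) holds the ER stress element, CCAAT followed after 9 bases by CCACG, bound by ATF6 and XBP1 together with NF-Y, which 0.119% of 32851 RefSeq promoter windows contain on either strand. The stretches of Atf3 (chr1:191183341-191183533, minus strand) and Chac1 (chr2:119351042-119351228, plus strand) hold the C/EBP-ATF response element TGATGNAA, to which ATF4 binds with C/EBP partners, on the opposite strand, as do 3.97% of the windows. Trib3 holds it after its start. A heat shock element, searched as GAA, TTC and GAA with 2 bases between each, was matched in 1 of the 10 genes, Hsph1, after its start, and in 0.603% of the windows. The cAMP response element (TGACG directly followed by TCA, in 1.79% of the windows) and the unfolded protein response element (TGACG directly followed by TGG, in 0.676%) were matched in 0 of the 10. All searches covered both strands. These matches are letters in a window and not evidence of binding.

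Per unit of length, Hspa5 and Atf4 were the most abundant of the genes in all 3 tissues. FPKM is a count per length and depth, as the authors deposited it, and levels are compared between genes on this scale only. The median FPKM of Hspa5 was 167 over the 20 livers, 60.3 over the subcutaneous and 81.1 over the visceral libraries. Atf4, whose output is set mainly at translation, had medians of 83.9, 72.2 and 56.1 FPKM in the same order. Ddit3 stood at 7.12 in liver, 20.1 in subcutaneous and 21.8 in visceral fat, and Dnajb1 at 9.94, 9.86 and 11.1. Hsph1 had 4.01, 3.91 and 3.88 and Trib3 6.22, 5.73 and 3.91 FPKM. Hspa1a had 1.69, 2.29 and 3.32 FPKM, Hspa1b 4.44, 2.89 and 4.95, Atf3 1.07, 2.90 and 4.92 and Chac1 2.34, 4.22 and 2.94. Atf3 also varied most within liver, where the highest library was 53.5 times the lowest, while Atf4 varied by 2.04 times.

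The order of the 12 group means was in most places not resolved. For Atf3 it ran from 17.3 ± 4.37 FPKM (SD, n = 5) in visceral fat of control mice with NaKtide and 15.96 ± 9.14 in visceral fat on Western diet down to 0.746 ± 0.241 in control liver with NaKtide and 0.574 ± 0.613 in control liver. In this order 10 of the 11 neighbouring pairs lay closer than the larger of their SDs. For Hspa5 it ran from 246.6 ± 134 FPKM in control liver to 58.0 ± 11.4 in subcutaneous fat on Western diet with NaKtide, again with 10 of 11 neighbours within that distance. For Hspa1a, Dnajb1 and Ddit3 all 11 neighbouring pairs were within it.

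Counts of genes past adjusted p 0.05 in edgeR's quasi-likelihood test (Benjamini-Hochberg adjustment over all genes tested, 1 model of 20 libraries per tissue) are given first. Western diet against control chow without NaKtide moved 1 of the 10 genes in liver (background 8.43% of all genes tested), 1 in subcutaneous fat (5.52%) and 5 in visceral fat (24.7%). NaKtide on control chow moved 0 in liver (1.37%), 0 in subcutaneous fat (0%) and 1 in visceral fat (7.14%). NaKtide on Western diet moved 1 in liver (4.82%), 0 in subcutaneous fat (0%) and 2 in visceral fat (13.1%). Western diet against chow with NaKtide in both groups moved 2 in liver (24.4%), 0 in subcutaneous fat (0%) and 1 in visceral fat (4.86%). The interaction, which asks whether NaKtide acted differently on the 2 diets (its log2 change on Western diet less that on chow), was called for 0 in liver (4.66%), 0 in subcutaneous fat (0%) and 3 in visceral fat (32.1%). Atf3 was called in 6 of these 12 comparisons of 2 groups, Hspa1a, Hsph1 and Hspa5 in 2 each, Hspa1b and Dnajb1 in 1 each, and Ddit3, Atf4, Trib3 and Chac1 in 0.

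Where edgeR called 0 of the 10, the genes at unadjusted p under 0.05 numbered 1 for NaKtide on chow in liver and 0 for the liver interaction. In subcutaneous fat they numbered 2 for NaKtide on chow, 2 for NaKtide on Western diet, 1 for diet under NaKtide and 3 for the interaction. DESeq2 called 0 in each of these 6 comparisons, and voom with quality weights called 1 for the liver interaction, 1 for NaKtide on Western diet in subcutaneous fat and 0 in the other 4.

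**Figure D1:**
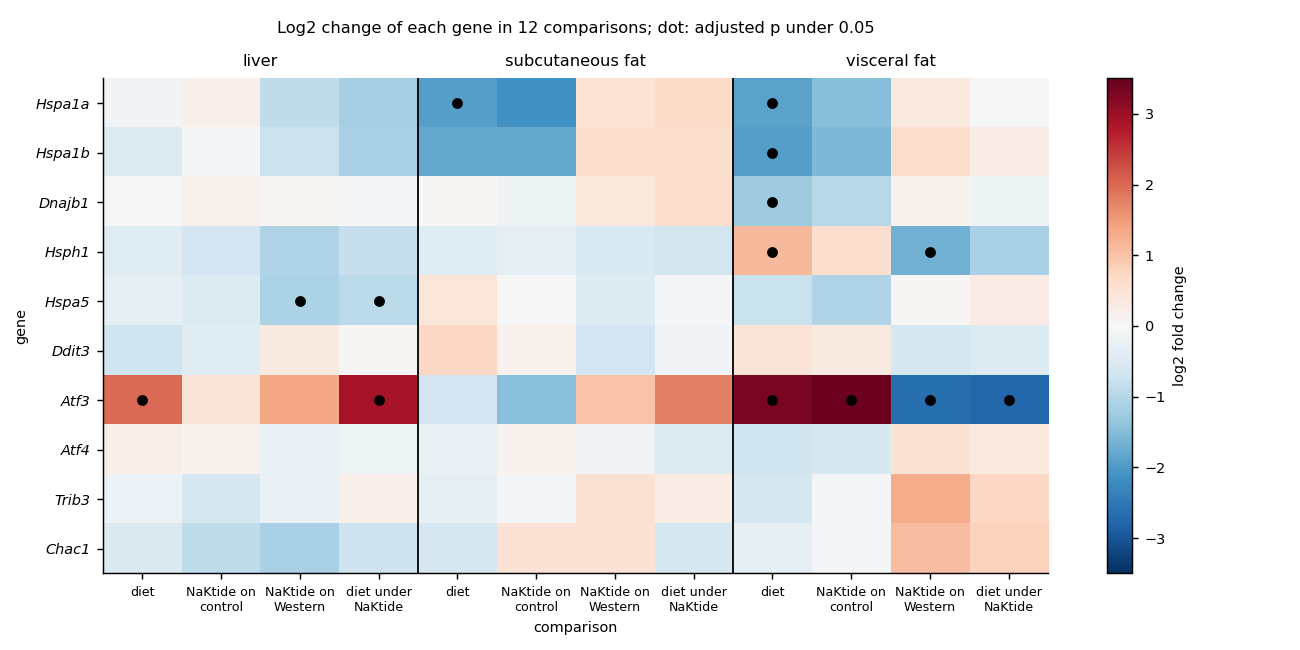
Log2 fold change of the 10 genes (rows) in 12 comparisons of 2 groups (columns, 4 per tissue), coloured from lower (blue) to higher (red) in the group named first, with a dot where the adjusted p was under 0.05. Atf3 carries 6 of the 14 dots, and Ddit3, Atf4, Trib3 and Chac1 carry 0.

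Of the cytosolic chaperones, the inducible HSP70 genes Hspa1a (ENSMUSG00000091971, chromosome 17, 34969190 to 34972156, minus strand) and Hspa1b (ENSMUSG00000090877, chromosome 17, 34956436 to 34959238, minus strand) were called lower on Western diet in visceral fat, and Hspa1a in subcutaneous fat. They refold and hold denatured proteins. In visceral fat Hspa1a measured 12.8, 11.1, 66.4, 34.7 and 93.8 CPM in control replicates 1 to 5 and 8.81, 9.14, 15.4, 14.7 and 12.1 CPM on Western diet. The 3 high controls are the libraries with male tract transcripts, and the other 2 lie within the Western range. The log2 change was -1.86 ± 0.57 (SE, adjusted p = 0.03 in edgeR) for Hspa1a and -1.93 ± 0.53 (adjusted p = 0.019) for Hspa1b. Without the 6 libraries with tract transcripts, a choice made after seeing the data, it was 0.01 ± 0.29 for Hspa1a (adjusted p = 0.98) and -0.17 ± 0.26 for Hspa1b (adjusted p = 0.68). The Hspa1a call was also lost when control replicate 3 or 5 or Western replicate 1, 3, 4 or 5 was left out, and that of Hspa1b without control replicate 3 or Western replicate 5.

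On chow with NaKtide the pair was near the Western level: Hspa1b held 43.2, 12.8, 13.4, 17.7 and 15.2 CPM, and replicate 1, the high one, has tract transcripts. The interaction was called for Hspa1b (2.19 ± 0.74, adjusted p = 0.031), and was 0.16 ± 0.35 (adjusted p = 0.78) without the 6 libraries. Its call was lost in 10 of 20 fits that left out 1 library, with values from 1.77 to 2.58. For Hspa1a it was 1.85 ± 0.79 (adjusted p = 0.081).

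High values went with the tract transcripts in every group that had such libraries. Hspa1a lay between 22.3 and 93.8 CPM in the 6 libraries with tract transcripts and between 6.55 and 15.4 CPM in the other 14, and Hspa1b between 34.1 and 105 CPM against 9.12 and 19.8 CPM. The ranges do not overlap for either gene. The share of all genes that separate these libraries in the same way was not computed, so the separation cannot be read as particular to the pair. The part of the tract tissue in these values was not tested. Dnajb1 (ENSMUSG00000005483, chromosome 8, 83608193 to 83612653, plus strand), the HSP40 partner that hands substrates to HSP70, lay between 51.98 and 287.5 CPM in those 6 and between 28.7 and 60.5 CPM in the others. Its fall on Western diet by 1.25 ± 0.44 on the log2 scale (adjusted p = 0.044) became -0.02 ± 0.22 (adjusted p = 0.96) without them, and -0.43 without control replicate 5 alone, the highest library. Of the 12 tract and testis genes themselves 7 were called lower on Western diet (24.7% of all genes called). The sum of the 12 ran from 15.1 to 20660 CPM in control and from 0.576 to 721 CPM in Western libraries. None of the 12 was at 0 in all 20 visceral libraries.

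In subcutaneous fat Hspa1a measured 8.17, 30.2, 14.1, 7.88 and 67.1 CPM in control replicates 1 to 5 and 5.39, 7.74, 8.29, 5.83 and 5.65 CPM on Western diet. Control replicates 2 and 5 are far above the rest, and the 2 lowest controls lie inside the Western range. The fall was called for Hspa1a (-1.94 ± 0.49, adjusted p = 0.028) and missed the threshold for Hspa1b (-1.79 ± 0.53, adjusted p = 0.054). With both genes summed, which avoids splitting shared reads, the change was -1.86 ± 0.51 (adjusted p = 0.041). Without control replicate 5 the Hspa1a change was -1.17 and was not called, and the call was also lost without control replicate 2 or any 1 of the 5 Western libraries. All 15 skeletal muscle genes were called lower in the same comparison (5.52% of all genes called). Their sums ran from 7593 to 58750 CPM in control and from 82.3 to 253 CPM in Western libraries. None of the 15 was at 0 throughout. With the muscle sum as a covariate, chosen after seeing the data, the Hspa1a change was -1.0 ± 0.78 (adjusted p = 0.61), in a fit that called 0.00657% of all genes for diet.

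Hsph1 (ENSMUSG00000029657, chromosome 5, 149614287 to 149636376, minus strand), an HSP110 that resets HSP70 by exchanging its nucleotide, moved apart from the HSP70 genes in visceral fat. It measured 59.9, 23.5, 15.9, 10.9 and 29.5 CPM in control replicates 1 to 5, and 30.4, 41.2, 43.7, 40.4 and 50.9 CPM in control with NaKtide. On Western diet it stood at 39.7, 61.98, 68.8, 68.8 and 66.1 CPM, and on Western diet with NaKtide at 15.03, 16.8, 27.2, 24.1 and 11.3 CPM. The Western group lies wholly above Western with NaKtide, while the control group overlaps the Western group through its replicate 1. The log2 change was 1.13 ± 0.35 with Western diet (adjusted p = 0.032) and -1.69 ± 0.36 with NaKtide on Western diet (adjusted p = 0.0064). The interaction was -2.26 ± 0.50 (adjusted p = 0.0035). Without the libraries with tract transcripts the diet change was 0.56 ± 0.33 (adjusted p = 0.29), the NaKtide change on Western diet -1.46 ± 0.30 (adjusted p = 0.0046) and the interaction -1.55 ± 0.45 (adjusted p = 0.022). With the sum of the macrophage markers described below as a covariate, chosen after seeing the data, the NaKtide change was -1.11 ± 0.55 (adjusted p = 0.21) and the interaction -0.83 ± 1.18 (adjusted p = 0.71). That sum does not overlap between Western diet with and without NaKtide, so the fit cannot tell the covariate and NaKtide apart. The share of all genes called for the interaction in that fit is given below with Atf3. The diet call was also lost without control replicate 3 or 4 or Western replicate 3, 4 or 5.

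In liver the cytosolic chaperones were not called in any of the 5 comparisons, and most were lower on Western diet with NaKtide than in either group it was compared with. Against Western diet alone Hsph1 changed by -1.05 ± 0.44 (adjusted p = 0.15), Hspa1a by -0.89 ± 0.61 (adjusted p = 0.37) and Hspa1b by -0.75 ± 0.52 (adjusted p = 0.38), while Dnajb1 changed by 0.09 ± 0.21 (adjusted p = 0.82). Against chow with NaKtide Hspa1a changed by -1.17 ± 0.60 (adjusted p = 0.15) and Hspa1b by -1.14 ± 0.51 (adjusted p = 0.10). Without both Western diet livers numbered 1 (one with and one without NaKtide), a choice made after seeing the data, the changes of Hsph1 (-1.505 ± 0.48, adjusted p = 0.027), Hspa1a (-1.82 ± 0.65, adjusted p = 0.045) and Hspa1b (-1.56 ± 0.53, adjusted p = 0.036) were called, in a fit that called 27.3% of all genes. For these genes the livers left out held the lowest value without NaKtide and the highest with it, so each fall had to widen.

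In a wider list of 38 cytosolic heat shock genes the share called was near or below that of all genes. On Western diet in visceral fat 2 of its 38 tested genes were higher and 6 lower (24.7% of all genes called; median log2 -0.02, all genes -0.22), with Serpinh1, the collagen chaperone, at 1.61 ± 0.53 (adjusted p = 0.038) and Fkbp4, an HSP90 co-chaperone, at -2.14 ± 0.58 (adjusted p = 0.017). In subcutaneous fat (5.52% of all genes) 0 were higher and 2 lower, Hspb1 by -1.46 ± 0.40 (adjusted p = 0.038) and Dnajb6 by -0.79 ± 0.22 (adjusted p = 0.038), and in liver (8.43%) 1 of 35 was higher and 1 lower. The visceral interaction (32.1%) had 5 higher and 4 lower.

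Hspa5 (ENSMUSG00000026864, chromosome 2, 34771970 to 34777547, plus strand) encodes BiP, the main HSP70 of the ER, and fell in liver when NaKtide was given on Western diet. The 5 Western livers held 325.7, 576, 706, 655 and 551 CPM, and the 5 with NaKtide held 369, 262, 203, 201 and 266 CPM. The groups overlap through the 2 replicates numbered 1, and the other 4 of each group are apart. The change was -1.11 ± 0.28 (adjusted p = 0.025), and it lost the call, at -1.02 to -1.12, without Western replicate 2, 3 or 4 or NaKtide replicate 2, 3, 4 or 5. Without both livers numbered 1 it was -1.41 ± 0.28 (adjusted p = 0.0016). Those livers were left out after seeing the data. They are the ones through which the groups overlap, so the change had to widen. On Western diet with NaKtide the gene was also below chow with NaKtide (472.6, 552, 475, 488 and 499.6 CPM), by -0.93 ± 0.28 (adjusted p = 0.021), and these groups do not overlap. The interaction was -0.62 ± 0.39 (adjusted p = 0.30), so a difference between diets in the NaKtide effect was not resolved. Mitochondrial genes took 7.06 to 16.95% of counts in the Western livers with NaKtide and 5.64 to 11.6% in those without. The macrophage sum (348 to 462 against 131 to 284 CPM) also differed. So did the sum of Ucp1, Cidea, Ppargc1a, Elovl3 and Cox7a1, 5 genes listed as brown adipocyte markers (59.7 to 82.3 against 173.5 to 341.6 CPM). That sum reached at most 47.6 CPM in visceral fat, and in liver it is not read as brown adipocytes. No gene of either list was at 0 throughout. Depth ran from 3.43 to 6.57 M counts in the Western livers with NaKtide and from 5.43 to 6.27 M in those without. NaKtide replicate 1, with the most Hspa5 of its group, was the deepest. The part of depth, of these sums and of the mitochondrial share in the change was not tested.

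Several other ER chaperones were called lower in the same livers. Of 43 genes for ER chaperones and ER-associated degradation 0 were higher and 5 lower with NaKtide on Western diet (4.82% of all genes called; median log2 -0.40, all genes -0.02). Pdia6, a disulfide isomerase, was at -1.30 ± 0.27 (adjusted p = 0.0078), Hyou1, the HSP110 of the ER, at -1.23 ± 0.26 (adjusted p = 0.0094) and Dnajb11, a BiP partner, at -0.97 ± 0.22 (adjusted p = 0.013). Without both livers numbered 1, a choice made after seeing the data, the list had 1 higher and 15 lower (27.3% of all genes). On chow with NaKtide 6 of the 43 were lower and 0 higher (1.37% of all genes called), led by Manf (-1.24 ± 0.23, adjusted p = 0.009), an ER-resident secreted factor, and Creld2 (-2.15 ± 0.42, adjusted p = 0.013), while Hspa5 changed by -0.49 ± 0.28 (adjusted p = 0.34). Without the 2 control livers with muscle transcripts 3 were lower and 0 higher (0.579% of all genes in that fit). Among 17 sensors and eIF2alpha kinases Ern1, the gene of IRE1, was at -1.06 ± 0.27 (adjusted p = 0.029) and Xbp1, the factor whose mRNA IRE1 splices, at -0.93 ± 0.25 (adjusted p = 0.036) with NaKtide on Western diet, and 0 were higher.

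**Figure D2:**
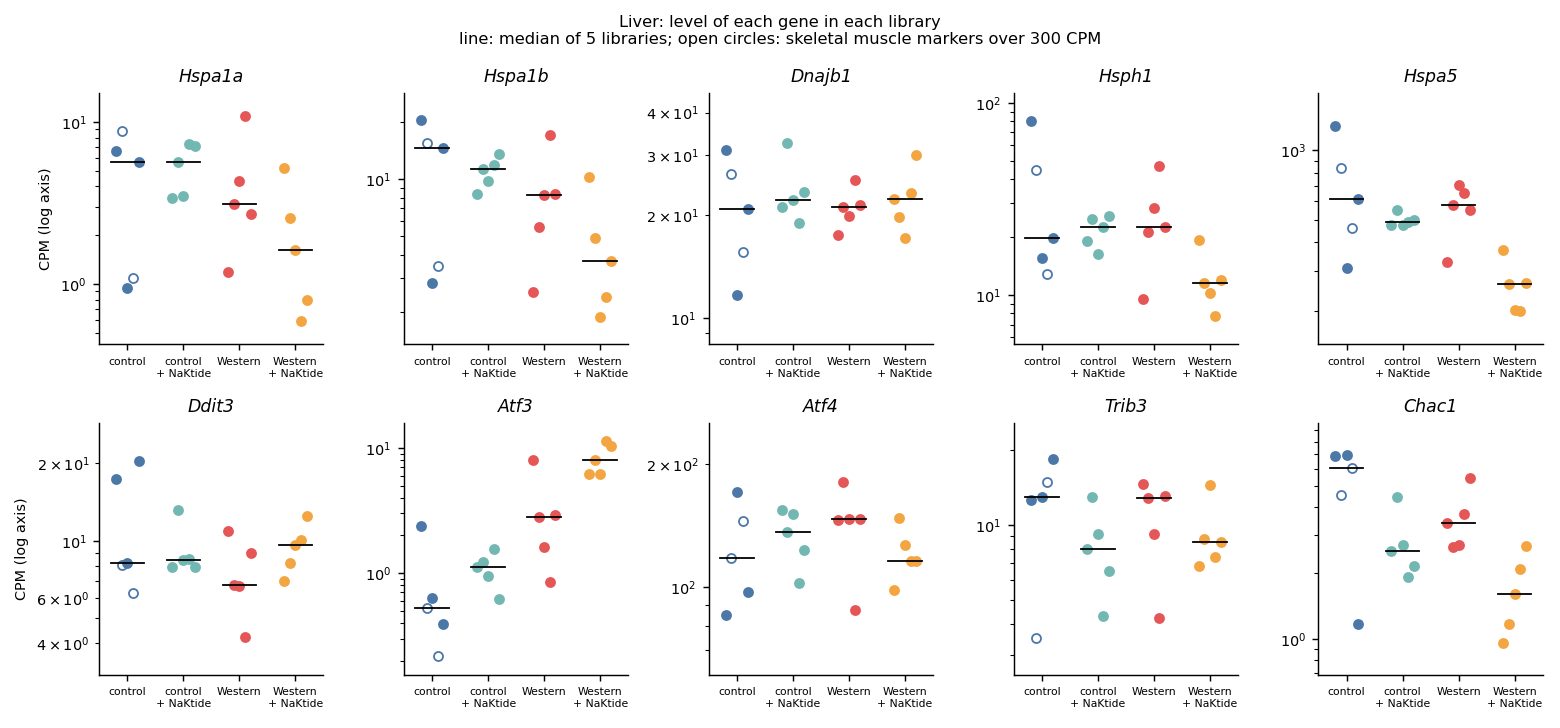
Level of each gene in the 20 liver libraries (CPM on a log axis, 1 panel per gene), by diet and NaKtide, with a line at the median of 5 libraries and open circles for the 2 control livers with muscle transcripts over 300 CPM. Hspa5 lies between 201 and 369 CPM on Western diet with NaKtide, and Atf3 between 6.18 and 11.3 CPM.

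In visceral fat the highest levels of Hspa5 lay in 4 of the 6 libraries with tract transcripts. The other 2, at 499 and 439 CPM, lay within the range of the other 14 libraries (263 to 590 CPM). Control replicates 1 to 5 held 302.3, 294.3, 1321, 1215 and 1127 CPM, and Western diet with NaKtide 330, 439, 392.5, 262.6 and 1117 CPM. All 4 libraries above 1000 CPM have tract and testis sums of at least 15990 CPM. With every library the gene was not called for diet (-0.79 ± 0.43, adjusted p = 0.17), for NaKtide on Western diet (0.04 ± 0.42, adjusted p = 0.96) or for the interaction (1.08 ± 0.60, adjusted p = 0.17). Without the 6 libraries with tract transcripts the diet change was 0.73 ± 0.20 (adjusted p = 0.025), the NaKtide change on Western diet -0.58 ± 0.17 (adjusted p = 0.027) and the interaction -0.97 ± 0.26 (adjusted p = 0.015). That leaves 2 control and 3 Western diet libraries with NaKtide. The list of 43 ER genes turned in the same way, from 4 higher and 10 lower on Western diet (24.7% of all genes called) to 5 higher and 1 lower (14% of all genes called in that fit).

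In subcutaneous fat Hspa5 held between 254.6 and 381.5 CPM in control and between 315.5 and 472 CPM on Western diet, and the 2 ranges overlap. The change was 0.42 ± 0.21 with diet (adjusted p = 0.22) and -0.49 ± 0.21 with NaKtide on Western diet (adjusted p = 0.34). The median log2 change of the 42 ER genes tested there was 0.05 with diet (all genes -0.02).

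Atf3 (ENSMUSG00000026628, chromosome 1, 191170296 to 191218039, minus strand), an immediate early repressor that ATF4 and many other signals induce, separated the visceral groups widely. Control replicates 1 to 5 held 4.16, 4.41, 7.25, 4.27 and 1.88 CPM, and control with NaKtide held 38.9, 64.3, 41.99, 54.8 and 36.3 CPM. Western diet held 16.3, 49.7, 84.1, 40.5 and 30.8 CPM, and Western diet with NaKtide 10.8, 6.76, 6.79, 3.48 and 7.34 CPM. Every library of the 2 high groups lies above every library of the 2 low groups.

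The log2 change of Atf3 was 3.34 ± 0.42 with Western diet (adjusted p = 0.00014) and 3.43 ± 0.42 with NaKtide on chow (adjusted p = 0.00024). It was -2.65 ± 0.41 with NaKtide on Western diet (adjusted p = 0.00073) and -2.74 ± 0.41 for Western diet against chow under NaKtide (adjusted p = 0.001). The interaction was -6.08 ± 0.58 (adjusted p = 3.6e-06), so NaKtide went with more Atf3 on chow and with less on Western diet. These comparisons share libraries: the 4 values come from 4 groups. Without the 6 libraries with tract transcripts the diet change was 3.36 ± 0.62 (adjusted p = 0.004) and the NaKtide change on chow 3.52 ± 0.64 (adjusted p = 0.0049). The NaKtide change on Western diet was then -2.60 ± 0.49 (adjusted p = 0.0031), diet under NaKtide -2.76 ± 0.50 (adjusted p = 0.0041) and the interaction -6.12 ± 0.81 (adjusted p = 0.00018).

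Macrophage genes moved with Atf3 in visceral fat. Of 9 macrophage markers 8 were called higher with Western diet (24.7% of all genes called) and 8 higher with NaKtide on chow (7.14%). With NaKtide on Western diet 8 were called lower (13.1%). None of the 9 markers was at 0 in all libraries. Their sum ran from 166 to 529 CPM in control, from 1784 to 2843 CPM in control with NaKtide, from 1376 to 3920 CPM on Western diet and from 333.5 to 1102 CPM on Western diet with NaKtide. In bulk tissue, more macrophages and more RNA of these genes per cell cannot be told apart. With the macrophage sum as a covariate, chosen after seeing the data, the Atf3 change with diet was 1.11 ± 0.65 (adjusted p = 0.40) and the interaction -2.38 ± 1.07 (adjusted p = 0.17), in a fit that called 0.0058% of all genes for diet and 0.789% for the interaction.

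**Figure D3:**
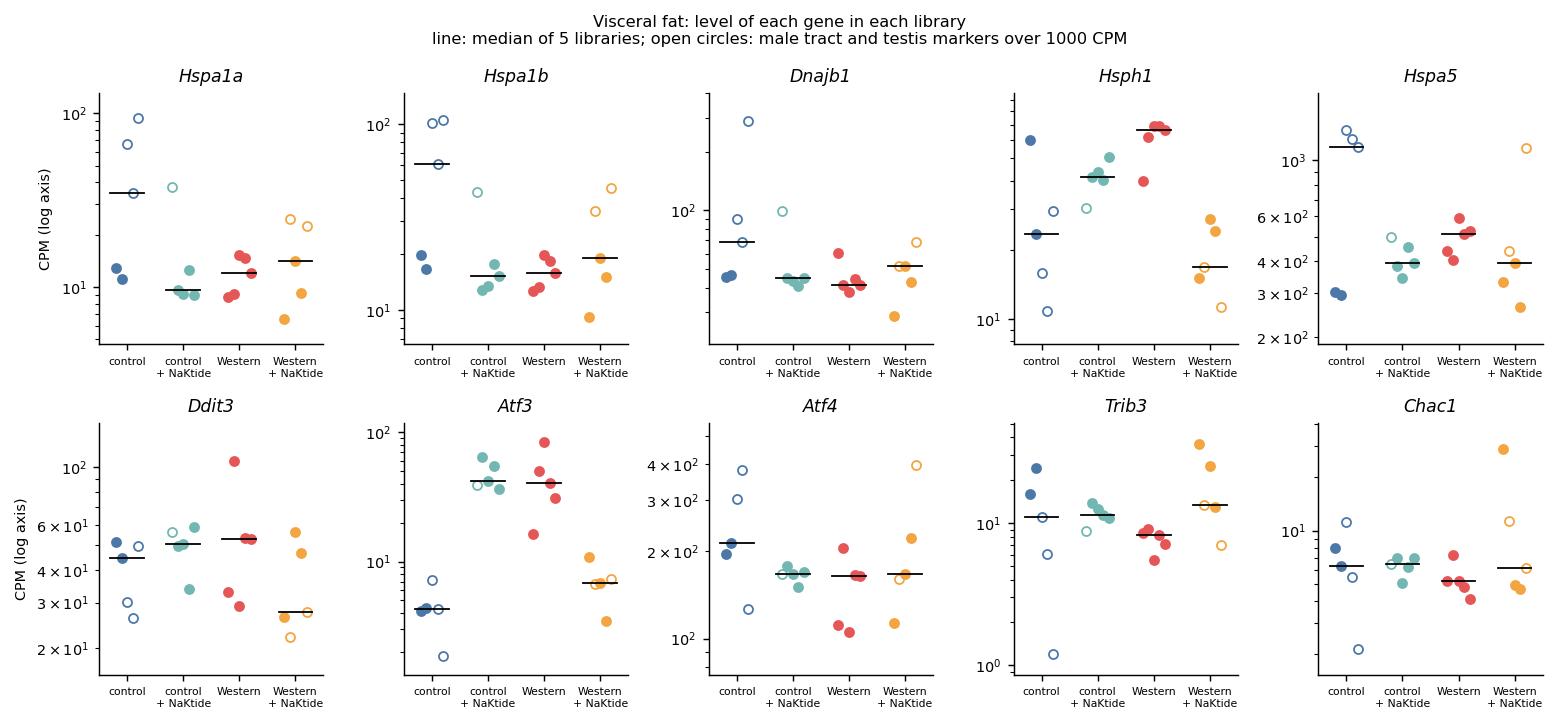
Level of each gene in the 20 visceral libraries (CPM on a log axis, 1 panel per gene), by diet and NaKtide, with a line at the median of 5 libraries and open circles for the 6 libraries with male tract and testis markers over 1000 CPM. Atf3 separates control with NaKtide and Western diet from the other 2 groups, while the highest points of Hspa1a, Hspa1b, Dnajb1 and Hspa5 are open.

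**Figure D4:**
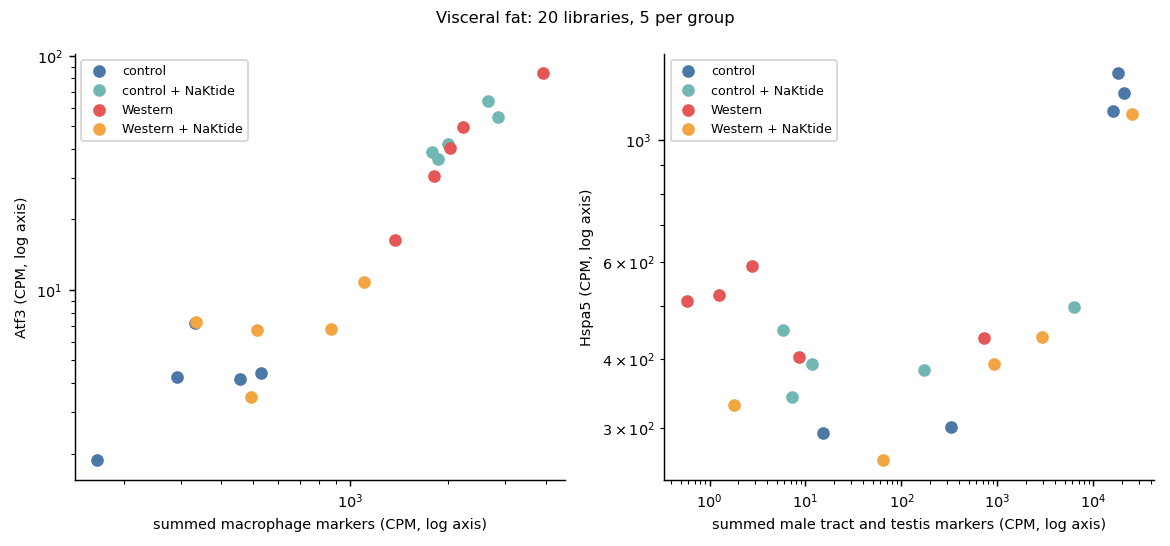
Atf3 against the sum of 9 macrophage markers (left) and Hspa5 against the sum of 12 male tract and testis markers (right) in the 20 visceral libraries, all in CPM on log axes and coloured by group. Libraries with macrophage sums of at least 1376 CPM hold at least 16.3 CPM of Atf3, and the 4 libraries with Hspa5 above 1000 CPM lie at the right end.

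Immediate early genes, a class of rapidly induced genes to which Atf3 belongs, moved in the same directions. Of 33 tested in visceral fat 13 were higher and 0 lower with Western diet (24.7% of all genes called; median log2 0.90, all genes -0.22), 5 higher and 0 lower with NaKtide on chow (7.14%) and 0 higher and 10 lower with NaKtide on Western diet (13.1%). Fos, a subunit of AP-1, rose by 3.55 ± 0.53 with Western diet (adjusted p = 0.00036) and by 3.28 ± 0.52 with NaKtide on chow (adjusted p = 0.001). Socs3, a cytokine-induced brake on signalling, rose by 3.55 ± 0.44 with Western diet (adjusted p = 0.00013) and fell by 2.96 ± 0.43 with NaKtide on Western diet (adjusted p = 0.0005). The interaction was called for 0 higher and 12 lower (32.1%). Without the libraries with tract transcripts 10 were higher and 0 lower with Western diet, in the fit whose share of all genes is given above with the ER genes.

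In liver Atf3 rose with Western diet from a very low level. Control livers held 2.38, 0.525, 0.632, 0.217 and 0.391 CPM and Western livers 7.99, 2.80, 1.62, 0.846 and 2.91 CPM, with overlap through control replicate 1. The change was 1.99 ± 0.56 (adjusted p = 0.031). The call was lost, with the direction kept, without control replicate 2, 3, 4 or 5 or Western replicate 1, with values down to 1.32 for the last, and was 1.499 ± 0.64 (adjusted p = 0.18) without the 2 control livers with muscle transcripts. Leaving out both Western diet livers numbered 1 also lost the call. Under NaKtide the diet contrast was wider: chow held 1.13, 1.22, 0.95, 1.55 and 0.618 CPM and Western diet 6.18, 8.01, 6.18, 11.3 and 10.4 CPM, with no overlap (2.89 ± 0.48, adjusted p = 0.00048). NaKtide on Western diet changed it by 1.35 ± 0.43 (adjusted p = 0.072), and by 2.13 ± 0.41 (adjusted p = 0.0011) without both livers numbered 1. That choice was made after seeing the data and took out the highest Western liver without NaKtide. The interaction was 0.90 ± 0.79 (adjusted p = 0.47).

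Macrophage transcripts differed between these livers as well. Of the 9 markers 8 were called higher for Western diet under NaKtide (24.4% of all genes called) and 3 for Western diet without it (8.43%). In both comparisons 0 were lower. Their sum ran from 70.8 to 159 CPM in control, 96.0 to 220 CPM in control with NaKtide, 131 to 284 CPM on Western diet and 348 to 462 CPM on Western diet with NaKtide, and their part in the Atf3 values was not tested in liver. Of 22 immediate early genes tested 8 were higher and 1 lower for diet under NaKtide (24.4% of all genes called; median log2 0.68, all genes -0.02), and 3 higher and 0 lower for diet without it (8.43%), with Jun at 1.33 ± 0.35 (adjusted p = 0.02).

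In subcutaneous fat Atf3 varied widely within groups and was not called. Control held 3.56, 47.1, 3.11, 7.22 and 23.6 CPM, Western diet 20.4, 9.74, 5.01, 3.29 and 13.4 CPM, and Western diet with NaKtide 50.7, 8.30, 30.3, 6.80 and 6.52 CPM. All groups overlap. The diet change was -0.68 ± 0.79 (adjusted p = 0.62) and the NaKtide change on Western diet 0.99 ± 0.79 (adjusted p = 0.68).

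Atf4 (ENSMUSG00000042406, chromosome 15, 80255184 to 80257541, plus strand), the factor at the head of this branch, was not called in any comparison within a tissue. In visceral fat it held between 126 and 379.5 CPM in control, 150 and 178 CPM in control with NaKtide, 105 and 205 CPM on Western diet and 113 and 395 CPM on Western diet with NaKtide. Its changes ran from -0.70 ± 0.32 (adjusted p = 0.10) with Western diet to 0.49 ± 0.31 (adjusted p = 0.28) with NaKtide on Western diet, and were -0.44 ± 0.26 (adjusted p = 0.30) and 0.16 ± 0.23 (adjusted p = 0.69) without the tract libraries. Regulation of ATF4 at translation would not show in mRNA counts.

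Ddit3 (ENSMUSG00000025408, chromosome 10, 127290774 to 127296288, plus strand) encodes CHOP, the factor linked to cell death in prolonged ER stress. In subcutaneous fat it held 40.5, 35.9, 42.6, 38.99 and 41.3 CPM in control and 40.8, 67.8, 90.4, 87.3 and 42.1 CPM on Western diet. The 3 middle Western replicates stand above all controls and replicates 1 and 5 do not. The change was 0.72 ± 0.22 (adjusted p = 0.061), and -0.68 ± 0.22 with NaKtide on Western diet (adjusted p = 0.21). In visceral fat the changes were 0.44 ± 0.34 (adjusted p = 0.32) and -0.61 ± 0.34 (adjusted p = 0.21), and in liver -0.70 ± 0.30 (adjusted p = 0.16) and 0.33 ± 0.30 (adjusted p = 0.52). Without the tract libraries the visceral changes were 0.20 ± 0.44 (adjusted p = 0.78) and -0.34 ± 0.38 (adjusted p = 0.57). Without the 2 control livers with muscle transcripts the liver diet change was -1.06 and was called. These livers hold the 2 lowest control values (8.045 and 6.281 CPM), so the fall had to widen. At the first muscle threshold of 500 CPM, which took only control replicate 4, the change was not called. Both fits were chosen after seeing the data. The highest visceral value, 106 CPM, belongs to Western diet replicate 2.

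**Figure D5:**
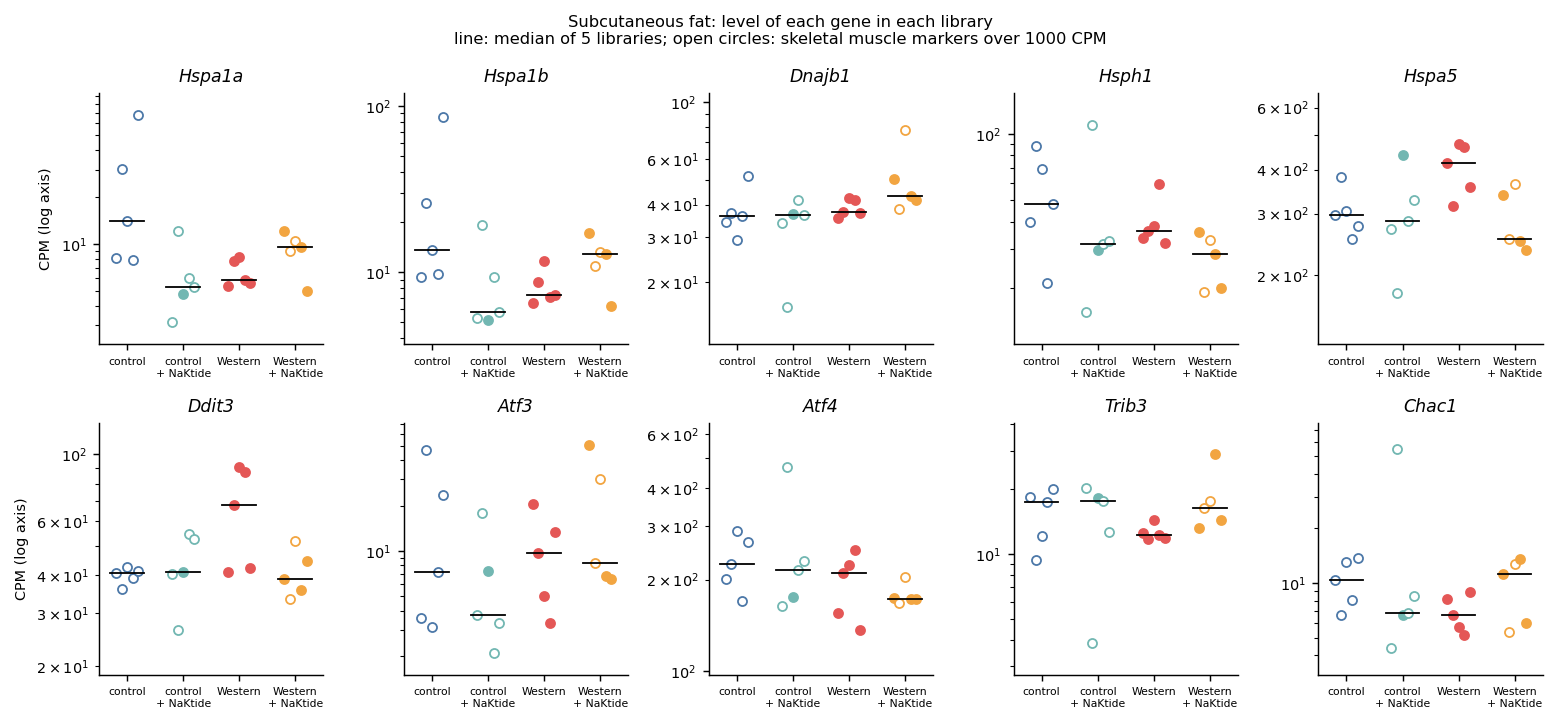
Level of each gene in the 20 subcutaneous libraries (CPM on a log axis, 1 panel per gene), by diet and NaKtide, with a line at the median of 5 libraries and open circles for libraries with skeletal muscle markers over 1000 CPM. Every control library is open and every Western diet library without NaKtide is filled.

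Among the targets, Trib3 (ENSMUSG00000032715, chromosome 2, 152337422 to 152344032, minus strand), a pseudokinase that binds AKT and ATF4, gave its widest contrast in visceral fat on Western diet. It held 8.45, 9.14, 5.496, 8.26 and 7.09 CPM on Western diet and 36.1, 13.4, 25.2, 13.0 and 7.03 CPM with NaKtide. The groups overlap through NaKtide replicate 5, a library with tract transcripts. The change was 1.30 ± 0.53 (adjusted p = 0.097), and 1.70 ± 0.27 (adjusted p = 0.0012) without the libraries with tract transcripts. In that fit the diet change was -1.40 ± 0.31 (adjusted p = 0.0095), against -0.61 ± 0.52 (adjusted p = 0.37) with all libraries, and the interaction 2.44 ± 0.42 (adjusted p = 0.0011), against 1.33 ± 0.74 (adjusted p = 0.18). These directions are opposite to those of Atf3 in the same tissue.

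Chac1 (ENSMUSG00000027313, chromosome 2, 119351229 to 119354381, plus strand) breaks down glutathione. In liver it held 3.40, 2.64, 2.70, 3.72 and 5.44 CPM on Western diet and 0.961, 1.17, 1.61, 2.08 and 2.66 CPM with NaKtide. The highest NaKtide library is just above the lowest Western library. The change was -1.13 ± 0.41 (adjusted p = 0.10). In visceral fat the NaKtide change on Western diet was 1.08 ± 0.46 (adjusted p = 0.11), and Western diet with NaKtide replicate 1, at 29.0 CPM, stands apart from the other 4 (4.64 to 11.3 CPM). Without the tract libraries that change was 1.29 ± 0.48 (adjusted p = 0.074).

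A list of 50 ATF4 and CHOP targets had 41 members tested in liver, 47 in subcutaneous and 48 in visceral fat. On Western diet 10 were higher and 1 lower in liver (8.43% of all genes called; median log2 0.10, all genes 0.03). Fgf21, a stress-induced hormone of liver and fat, rose by 3.65 ± 0.77 (adjusted p = 0.0049), and Aldh18a1, an enzyme of proline synthesis, by 2.30 ± 0.48 (adjusted p = 0.0043), while Cth, an enzyme of cysteine synthesis, fell by 1.36 ± 0.27 (adjusted p = 0.0031). Without the 2 control livers with muscle transcripts 3 were higher and 1 lower. The share of all genes called in that fit is not set beside these counts, so a change particular to the list cannot be read from them. In subcutaneous fat (5.52%) 2 were higher and 3 lower, with the cystine carrier Slc7a11 at 1.73 ± 0.42 (adjusted p = 0.024). In visceral fat 6 were higher and 5 lower (24.7%), and with NaKtide on Western diet 3 were higher and 4 lower (13.1%), shares near those of all genes. There Asns, which makes asparagine, rose by 1.45 ± 0.29 (adjusted p = 0.0044) and Slc7a11 fell by 1.78 ± 0.45 (adjusted p = 0.016). The visceral interaction was called for 9 higher and 9 lower (32.1%).

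Differences between tissues were tested in 1 model of all 60 libraries. On control chow without NaKtide 4 of the 10 genes differed between liver and subcutaneous fat (background 56.4%), 6 between liver and visceral fat (65.5%) and 4 between the fats (31.5%). Hspa5 was higher in liver than in subcutaneous fat by 2.02 ± 0.34 (adjusted p = 1.7e-06), with 35 of 43 ER genes higher and 1 lower (median log2 1.57, all genes -0.18). It was higher in visceral than in subcutaneous fat by 1.38 ± 0.34 (adjusted p = 0.0021), where the 3 control libraries with tract transcripts have the high values given above. The fourth gene called between the fats, Hsph1 (-1.05 ± 0.42, adjusted p = 0.05), lost its call in all 5 other fits tried and without 7 of 10 libraries in turn. Atf3 was lower in liver than in subcutaneous fat by -3.55 ± 0.74 (adjusted p = 5.1e-05), and Ddit3 by -0.91 ± 0.31 (adjusted p = 0.0098). Hspa1a was also lower in liver than in subcutaneous fat (-1.61 ± 0.59, adjusted p = 0.018), but Hspa1a and Hspa1b summed were not called. Dnajb1 (1.43 ± 0.33, adjusted p = 0.0013) was higher and Atf3 (-2.07 ± 0.62, adjusted p = 0.0093) lower in visceral than in subcutaneous fat, and Atf3 was at -1.22 and not called without subcutaneous control replicate 2. Against visceral fat, liver had less Hspa1a (-2.30 ± 0.60, adjusted p = 0.00093), Hspa1b (-1.48 ± 0.55, adjusted p = 0.017), Dnajb1 (-1.44 ± 0.33, adjusted p = 0.0002) and Ddit3 (-0.81 ± 0.31, adjusted p = 0.017). It had more Hsph1 (1.25 ± 0.42, adjusted p = 0.0088) and Trib3 (1.02 ± 0.42, adjusted p = 0.031). The 3 visceral control libraries with tract transcripts hold the highest control values of Hspa1a, Hspa1b and Dnajb1, and voom called none of these genes. Hspa1b and Ddit3 each kept the call in 6 of 10 fits that left out 1 library. Hsph1 was at 0.69 and not called without liver control replicate 1, and Trib3 lost its call without liver control replicate 4 or 5 or visceral control replicate 3, 4 or 5, and was at 0.32 with voom. Without visceral control replicate 5 Dnajb1 was at 0.59 between the fats and at -0.49 between liver and visceral fat, and was called in neither. Voom with quality weights called 2 of the 10 between liver and visceral fat and 0 between the fats.

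The response of Atf3 differed between tissues in 3 of the 6 contrasts tested. The diet effect differed for 0 of the 10 genes between liver and subcutaneous fat (background 0.688%, 3 at unadjusted p under 0.05 in edgeR), 0 between liver and visceral fat (10.4%, 5 at unadjusted p under 0.05) and 1 between the fats (5.28%). DESeq2 called 1, 1 and 2 and voom with quality weights 2, 2 and 0. The diet effect on Atf3 was larger in visceral than in subcutaneous fat by 4.04 ± 0.86 (adjusted p = 0.0037). The NaKtide effect on Western diet differed for 0 genes between liver and subcutaneous fat (0.066%, 2 at unadjusted p under 0.05 in edgeR, 0 by DESeq2 and 0 by voom), 2 between liver and visceral fat (10.4%) and 1 between the fats (4.6%). For Atf3 it was higher in liver than in visceral fat by 4.00 ± 0.88 (adjusted p = 0.0019), and in visceral below subcutaneous fat by -3.62 ± 0.84 (adjusted p = 0.0076). For Chac1 it was lower in liver than in visceral fat by -2.22 ± 0.69 (adjusted p = 0.03), and -1.47 without Western diet with NaKtide replicate 1 of visceral fat, where it was not called. Whether macrophage, tract or muscle transcripts bear on these differences was not tested.

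Within groups, the level of Hspa5 followed other ER genes most closely. Likeness was measured as Pearson's r of log2 CPM after subtracting group means, over 20 libraries per tissue that share their depth and cell make-up, averaged over the 3 tissues and compared over 10422 genes. The mean r of Hspa5 was 0.895 with Pdia6, 0.892 with Hyou1 and 0.864 with Sec61a1, a channel of the ER membrane. Hspa1a and Hspa1b, which share reads, had 0.954 with each other. The genes most like Hsph1 were Ldha (0.836), Ppid (0.782) and Ube2g2 (0.780). Those most like Atf3 were Tagln2 (0.717), Mmp12 (0.700), a macrophage elastase, and the lysosomal Hexa (0.646), and those most like Ddit3 Dtnbp1 (0.724), Dda1 (0.635) and Trmt2a (0.612). For Atf4 they were Psmb5 (0.824), Zcrb1 (0.822) and Rpl24 (0.813), for Trib3 Rarres2 (0.851), Rbpms (0.795) and Pxdc1 (0.780), and for Chac1 Gadd45g (0.648) and Slc25a4 (0.643). These values are descriptions.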

How the data were processed

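The authors deposited raw counts for 54232 gene IDs in 60 libraries, per the file headers, and every test starts from them. Of 2 further tables they deposited, the normalized signal (counts over 1 size factor per library) was only checked against the counts, and FPKM served for levels between genes and tissues. Per the submitters' processing notes the tools included Trimmomatic 0.38 with HISAT2 2.1.0, and DESeq2 1.20.0, and the genome build was GRCm38. How reads were assigned to genes, and with which annotation, is not given in the sources used. Gene coordinates are from GENCODE M21 (GRCm38) and promoter windows from RefSeq (GRCm38.p6).

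edgeR 4.0.16 under R 4.3.3 fitted each tissue's 20 libraries in 1 model and all 60 in another, for 15 comparisons within and 9 between tissues, by the robust quasi-likelihood test with TMM factors. Genes below filterByExpr's minimum count of 10 were left out (Atf3 too in 2 liver fits of only the groups compared), which kept 12991 in liver, 15226 in subcutaneous fat, 17235 in visceral fat and 18175 overall. A gene was called at an adjusted p under 0.05. CPM use each tissue's own TMM-scaled library sizes. Other fits changed the scaling (RLE), dropped the filter, used DESeq2 1.42.0 or voom with quality weights (limma 3.58.1), added the replicate number as a block, fitted only the groups compared, summed Hspa1a and Hspa1b, or left out each library in turn. Fits without libraries carrying tract or muscle transcripts, without both Western diet livers numbered 1, and with macrophage or muscle covariates were chosen after seeing the data. The liver muscle threshold was first 500 CPM, which took control replicate 4, and was then lowered to 300 CPM, which also took replicate 2. The code was tested on simulated data. All 10 genes were to be named in every comparison, and up to 3 called genes per direction, by smallest p, from each of 6 wider lists (heat shock, ER, sensors, ATF4 and CHOP targets, immediate early, clock). These genes and lists were chosen with earlier results of these data known. Beyond the design's 5 mice per group nothing says how replicates arose, so p-values measure the spread between these samples.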

Additional observations from a re-analysis of the deposited data

Results flagged for a closer look

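In 20 of 120 sets of 5 libraries (1 gene in 1 group) the highest or lowest value lay far from the other 4, by Dixon's criterion at 0.71 of the range. For independent, normally distributed values chance would give about 1 in 20, or 6 here. The genes share libraries and unlogged CPM can be skewed, so 20 against 6 is not a test of chance. All but 1 were high.

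In visceral fat 4 of these values were cytosolic chaperones in libraries with male tract transcripts: Hspa1a at 37.5 CPM, Hspa1b at 43.2 CPM and Dnajb1 at 99.8 CPM in control with NaKtide replicate 1, and Dnajb1 at 287.5 CPM in control replicate 5. Hspa5 at 1117 CPM in Western diet with NaKtide replicate 5 came from another such library. Western diet replicate 1, with a tract and testis sum of 721 CPM, had Dnajb1 at 60.5 CPM and the single low value, Hsph1 at 39.7 CPM. Chac1 stood at 29.0 CPM in Western diet with NaKtide replicate 1.

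In subcutaneous fat, control with NaKtide replicate 2, the library with the most muscle transcripts, held Hsph1 at 109.8 CPM, Atf4 at 466.6 CPM and Chac1 at 54.6 CPM. Hspa1b was 85.6 CPM in control replicate 5. Western diet replicate 4 had Hsph1 at 59.0 CPM and replicate 3 had Trib3 at 14.4 CPM. With NaKtide on Western diet, Atf4 was 204 CPM in replicate 3 and Trib3 29.0 CPM in replicate 4.

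In liver Atf3 was 2.38 CPM in control replicate 1 and 7.99 CPM in Western diet replicate 1. Ddit3 was 13.2 CPM in control with NaKtide replicate 2, and Trib3 14.5 CPM in Western diet with NaKtide replicate 3.

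Effects that differed between groups by edgeR's test of the difference were the visceral diet by NaKtide interactions of Hspa1b (2.19), Hsph1 (-2.26) and Atf3 (-6.08), all as log2 changes. Between tissues they were the diet effect on Atf3 in visceral less subcutaneous fat (4.04), and the NaKtide effect on Western diet on Atf3 in liver less visceral fat (4.00) and visceral less subcutaneous fat (-3.62), and on Chac1 in liver less visceral fat (-2.22).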

How the results depend on the processing

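Counts are of the 10 genes called. The share of all genes called also changed between fits, as shares given in earlier paragraphs show. These counts therefore do not describe the 10 genes alone. For diet in liver (1 called) the count was 0 with only the groups compared (where Atf3 fell below the low-count filter and was not tested), without control liver 4, or without both Western diet livers numbered 1. For NaKtide on Western diet in liver (1) it was 2 with DESeq2, 3 with voom and 5 without the livers numbered 1. For diet under NaKtide in liver (2) it was 4 with only the groups compared and 4 without the livers numbered 1, and for the liver interaction (0) 1 with voom. For diet in subcutaneous fat (1) it was 0 without the low-count filter, 3 with DESeq2, 0 with the replicate block, 4 with voom, 2 with only the groups compared and 0 with the muscle covariate, and for NaKtide on Western diet there (0) 1 with voom. For diet in visceral fat (5) it was 2 without the filter, 2 with the block, 3 with voom, 3 with only the groups compared, 3 without the tract libraries and 0 with the macrophage covariate. For NaKtide on chow in visceral fat (1) it was 3 with DESeq2 and 0 with the macrophage covariate. For NaKtide on Western diet there (2) it was 4 with voom and 4 without the tract libraries. For diet under NaKtide (1) it was 2 with DESeq2, voom, only the groups compared, the tract libraries out or the macrophage covariate, and for the interaction (3) 5 with DESeq2 and 1 with that covariate. Between tissues, liver against visceral fat (6) gave 2 with voom, and visceral against subcutaneous fat (4) 0 with voom. The difference in diet effect gave 1 with DESeq2 and 2 with voom for liver less subcutaneous fat (0), 1 and 2 for liver less visceral fat (0), and 2 and 0 for visceral less subcutaneous fat (1). The difference in NaKtide effect, liver less visceral fat (2), gave 1 without the filter. The causes were not tested.

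Log2 changes called in either fit turned sign for diet in visceral fat without the tract libraries (Hspa1a 0.0125, Hspa5 0.73) and with the macrophage covariate (Hspa1a 0.79, Hspa1b 0.69, Dnajb1 1.505), for Hspa5 with NaKtide on Western diet (-0.58) and in the interaction (-0.97) without the tract libraries, and for Hspa1b in the interaction with the covariate (-2.12). A further 20 values not called in either fit also turned sign with the macrophage covariate, and 9 without the tract libraries.

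Leaving out 1 library gave 0 to 1 called for diet in liver, 0 to 0 for NaKtide on chow, 0 to 2 for NaKtide on Western diet, 1 to 4 for diet under NaKtide and 0 to 0 for the interaction. In subcutaneous fat it gave 0 to 2 for diet and 0 to 0 for the other 4. In visceral fat it gave 1 to 5, 1 to 3, 2 to 2, 1 to 1 and 2 to 4 in the same order. Between tissues it gave 3 to 4 for liver against subcutaneous fat, 3 to 6 for liver against visceral fat and 2 to 5 for the fats, 0 to 0, 0 to 2 and 1 to 4 for the differences in diet effect, and 0 to 0, 1 to 2 and 1 to 1 for those in NaKtide effect. Of 3300 single-gene values, 3176 kept their side of the threshold, 85 lost and 39 gained a call, and 0 called values turned sign.

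Between groups of a tissue, same-numbered deviations had median correlations of -0.10, 0.02 and -0.06 in liver, subcutaneous and visceral fat. Between tissues, for the same group and number, the medians were -0.03 (liver and subcutaneous fat), 0.05 (liver and visceral fat) and -0.003 (both fats). Single pairs ran from -0.37 to 0.44. These values do not settle whether a number stands for the same mouse in several tissues. With the block 6 of 240 single-gene values lost their call. RLE scaling moved the split of all genes called for NaKtide on Western diet in liver from 293 higher and 333 lower to 333 and 287, and for the liver interaction from 242 and 364 to 353 and 331. Depth limits Atf3 in liver, at under 1 CPM in 4 controls.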

Other observations

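Clock and temperature genes, a list of 20 with no member among the 10 genes, were called in part in visceral fat. With Western diet 3 were higher and 9 lower (24.7% of all genes called; median log2 -0.82, all genes -0.22), with Nfil3, a repressor of clock output, at 1.54 ± 0.26 (adjusted p = 0.00076), Hlf, a clock output factor, at -2.58 ± 0.38 (adjusted p = 0.00034) and Cirbp, a cold-induced RNA-binding protein, at -1.24 ± 0.27 (adjusted p = 0.0052). With NaKtide on chow 0 were higher and 3 lower (7.14% of all genes) and with diet under NaKtide 3 higher and 0 lower (4.86%), and the interaction had 6 higher and 1 lower (32.1%). With NaKtide on Western diet 3 were higher and 0 lower, a share near that of all genes (13.1%), Cirbp by 1.31 ± 0.27 (adjusted p = 0.0055) and Hlf by 1.76 ± 0.37 (adjusted p = 0.006). In subcutaneous fat (5.52%) 1 was higher and 6 lower with Western diet, with Arntl, a core clock activator, at 1.38 ± 0.36 (adjusted p = 0.032) and Tef at -1.55 ± 0.31 (adjusted p = 0.015). The hour of sampling is not given in the sources used here, and its part in the values of the stress genes was not tested.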
